A study of Mus musculus with 8 samples.

Results

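The genes described here encode proteins that take part in splicing and in the choice of splice sites. They are the hnRNPs, the SR proteins, the SF3A and SF3B subunits, the Sm and other Snrp proteins and U2AF. The genes were taken by symbol, as all genes whose platform symbol begins Hnrnp, Srsf, Sf3a, Sf3b, Snrp or U2af, together with Raly, Ptbp1, Tra2a and Tra2b. The array carried 136 probes for 55 such genes, out of 45281 probes in all. The tests took every probe detected on 4 or more of the 8 arrays, with a detection p-value under 0.05. This left 93 probes of 48 genes, out of 18601 tested probes. Of the 43 probes left untested, 35 were detected on no array and 6 on 3 control and 0 anti-miR-214 arrays. The 7 genes with no tested probe were Hnrnph2, Hnrnph3, Sf3a2, Sf3b1, Snrpb2, Snrpe and Srsf12, and Srsf7 and Snrpn were not analysed here.

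The study measured total RNA of whole kidney from adult male mice, strain C57/bk, at 7 days after unilateral ureteral obstruction (UUO), an operation that ties off 1 ureter and leads to tubular injury, inflammation and fibrosis in that kidney. All animals had the obstruction. They received either a control antimiR or anti-miR-214, an oligonucleotide made to bind and block the microRNA miR-214. Each group had 4 animals and 4 Illumina bead arrays, 1 per animal, and no unobstructed kidney was analysed here.

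Splicing joins the exons of a pre-mRNA. U2AF and the SF3A and SF3B proteins of the U2 particle mark the 3′ end of the intron, while the Sm proteins form the ring that holds the small nuclear RNAs. SR proteins generally favour the use of the exons they bind, and hnRNPs often oppose it. Many of these genes also make alternative transcripts of their own pre-mRNA, so that probes of 1 gene can read different transcripts. Which transcript each probe reads was not analysed here.

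The mature miR-214 sequences are shown because the 3p strand is the one that miR-214 is best known for. They are RefSeq entries of mouse assembly GRCm38.p6 on the plus strand, chr1:162223438-162223459 for the 3p arm and chr1:162223397-162223418 for the 5p arm, written 5′ to 3′ with the seed, bases 2 to 8, in capitals. No target site was searched for in the genes described here.
mmu-miR-214-3p: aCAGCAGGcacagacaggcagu
mmu-miR-214-5p: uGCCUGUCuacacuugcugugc

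Promoter windows, from 250 bases before to 50 bases after the transcription start, are shown for 3 genes with some of the largest falls and for the gene that was higher on both of its probes. They come from RefSeq, GRCm38.p6, at chr12:80945249-80945548 on the plus strand for Srsf5, chr16:22265956-22266255 on the minus strand for Tra2b, chr13:58402068-58402367 on the minus strand for Hnrnpk and chr12:4817358-4817657 on the plus strand for Sf3b6. Capitals mark matches to 5 motifs, each searched on both strands. They are the GC box (GGGCGG), the motif of ETS factors (CCGGAAG), the E box (CACGTG), the CCAAT box, spelled as its name, and the short TATA motif, for which the letters searched were TATAAA.
Srsf5: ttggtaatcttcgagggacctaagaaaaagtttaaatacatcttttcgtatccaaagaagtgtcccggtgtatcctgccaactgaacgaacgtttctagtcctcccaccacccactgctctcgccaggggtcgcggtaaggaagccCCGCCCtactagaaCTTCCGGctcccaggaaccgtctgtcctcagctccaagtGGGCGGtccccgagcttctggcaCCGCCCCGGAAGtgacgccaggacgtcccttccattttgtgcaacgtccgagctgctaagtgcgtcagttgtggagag
Tra2b: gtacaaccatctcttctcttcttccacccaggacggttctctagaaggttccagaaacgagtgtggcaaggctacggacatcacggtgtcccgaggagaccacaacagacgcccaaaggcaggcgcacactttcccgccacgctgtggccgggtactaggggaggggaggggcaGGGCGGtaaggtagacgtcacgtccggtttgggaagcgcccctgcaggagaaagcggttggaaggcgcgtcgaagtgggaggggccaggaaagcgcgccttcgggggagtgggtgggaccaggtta
Hnrnpk: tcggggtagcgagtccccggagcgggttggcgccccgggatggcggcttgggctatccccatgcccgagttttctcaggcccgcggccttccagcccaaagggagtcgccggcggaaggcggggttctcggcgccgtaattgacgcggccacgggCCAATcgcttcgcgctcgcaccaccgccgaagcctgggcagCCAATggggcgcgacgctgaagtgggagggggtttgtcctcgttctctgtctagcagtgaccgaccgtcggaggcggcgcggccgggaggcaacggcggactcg
Sf3b6: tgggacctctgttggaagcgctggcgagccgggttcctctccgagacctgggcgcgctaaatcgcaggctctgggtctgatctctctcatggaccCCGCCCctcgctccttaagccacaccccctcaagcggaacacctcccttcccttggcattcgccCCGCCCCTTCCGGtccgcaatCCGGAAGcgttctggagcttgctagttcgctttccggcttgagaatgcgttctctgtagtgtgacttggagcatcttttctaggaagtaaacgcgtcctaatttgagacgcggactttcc

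The Srsf5 window held 3 GC boxes and 2 ETS motifs, 1 of which shares a base with a GC box. The Tra2b window held 1 GC box, the Hnrnpk window 2 CCAAT boxes, and the Sf3b6 window 2 GC boxes and 2 ETS motifs, of which 1 pair abuts. Of the 55 genes, tested or not, 48 had a promoter window, and there were 63 such windows. A GC box lay in 74.6% of them, against 35.66% of all 32851 promoter windows, and an ETS motif lay in 30.16% against 8.858%. A CCAAT box lay in 49.21% against 37.41%, an E box in 12.7% against 7.15% and a TATA box in 9.524% against 13.62%. These are matches of letters, and Sf3b6, which was higher, and Srsf5, which was lower, held the same pair of motifs. All 32851 windows were taken whether or not their gene was detected in these kidneys, and GC content was not matched.

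Values are log2 intensities after background correction and normalization, and a change is the anti-miR-214 mean minus the control mean on that scale. Probes of a gene are numbered from 1 for the brightest over all 8 arrays. A change was called when limma's p-value, adjusted over all 18601 tested probes by Benjamini-Hochberg, was under 0.05. Arrays of anti-miR-214 animals had fewer detected probes, 17378 ± 438 against 19178 ± 284 on control arrays (SD, n = 4), with no overlap and a two-sided exact permutation p of 0.0286, the smallest that 70 arrangements allow. Anti-miR-214 replicates 3 and 4 had the fewest, 16852 and 17182. In genes other than those described here, probes lay below the brightest probe of their gene by more on anti-miR-214 arrays, with a mean difference of -1.84 ± 0.04 against -1.73 ± 0.03 on the log2 scale (exact permutation p = 0.0286). For the splicing factor probes this gap was -2.06, -2.09, -2.05 and -2.06 on control arrays 1 to 4. On anti-miR-214 arrays 1 to 4 it was -2.08, -2.06, -2.09 and -2.02, and the groups overlapped. Slide 1 held replicates 1 to 3 of both groups and slide 2 replicate 4 of both. All 8 kidney epithelium markers were detected and 0 changed by limma's adjusted p, or at an unadjusted p under 0.05. Of the other marker lists, 7 of 8 detected fibroblast and matrix genes, 2 of 7 macrophage genes, 3 of 5 endothelial genes, 4 of 5 proliferation genes and 2 of 4 erythroid genes were lower, and 1 of 5 T and NK cell genes was higher. Over all named genes 9.93% were lower and 12.3% higher. An unadjusted limma p under 0.05 was found for 7 of 8 fibroblast and matrix, 5 of 7 macrophage and 5 of 5 endothelial genes. The same held for 4 of 5 proliferation, 3 of 4 erythroid, 3 of 5 T and NK cell and 1 of 2 muscle genes. The summed level of the macrophage markers ran from 13631 to 15912 on control arrays and from 5926 to 10488 on anti-miR-214 arrays, and that of the T and NK cell markers from 2085 to 2654 and from 3417 to 4935. The sums overlapped for fibroblast and matrix markers (19185 to 28718 against 12454 to 20268), endothelial (5954 to 8750 against 2463 to 6075), proliferation (935 to 1341 against 524 to 1099) and erythroid markers (15534 to 19395 against 3367 to 17548). The muscle markers Acta1, Ckm and Myh4 and the T cell markers Cd8a and Cd4 were not detected. The part of detection, of the probe gap and of these markers in the results was not tested. In whole tissue, fewer cells of a type and less RNA per cell cannot be told apart.

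Splicing factor probes were lower after anti-miR-214 far more often than higher. Of the 93 probes, 28 were lower (30.1%, against 13.8% of all tested probes), 3 were higher (3.23%, against 11.8%) and 62 did not pass. At least 2-fold falls were found for 12 of them, against 3.44% of all tested probes. The median change of the 93 probes was -0.20, against 0.05 over all tested probes, and 63 of the 93 lay below 0. The values of the groups did not overlap for 35 of the 93 probes in the lower direction, against 13.8% of all tested probes. In the higher direction they did not overlap for 9 of the 93, against 15.1%. Together these were 47.3% of the probes against 28.9% of all. The test took in 2 probes that were detected on all 4 control arrays and 0 anti-miR-214 arrays. Among the 83 splicing factor probes detected on all 8 arrays, 28 were lower (33.7%, against 11.8% of all probes detected so) and 4 were higher (4.82%, against 14.1%). These 28 are not the same set as the 28 above. Of the earlier lower calls 25 were on probes detected so, and all 25 were kept. The calls on Hnrnpf, Hnrnph1 probe 4 and Srsf10 probe 3 fell outside, and 4 calls, lower or higher, were gained.

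By family, 16 of 48 hnRNP probes (33.3%) and 9 of 21 SR and Tra2 probes (42.9%) were lower, with median changes of -0.21 and -0.26. In the SF3 family 1 of 10 probes was lower (10%) and 2 were higher (20%), with a median change of 0.03. Among the Snrp probes 2 of 11 were lower (18.2%), with a median of -0.31, and 0 of the 3 U2AF probes passed. Of all tested probes 13.8% were lower and 11.8% higher. The difference between families was not tested. Taken by the brightest probe, 10 of the 48 genes were lower (20.8%, against 9.93% of the 10734 named genes) and 1 was higher (against 12.3%).

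**Figure D1:**
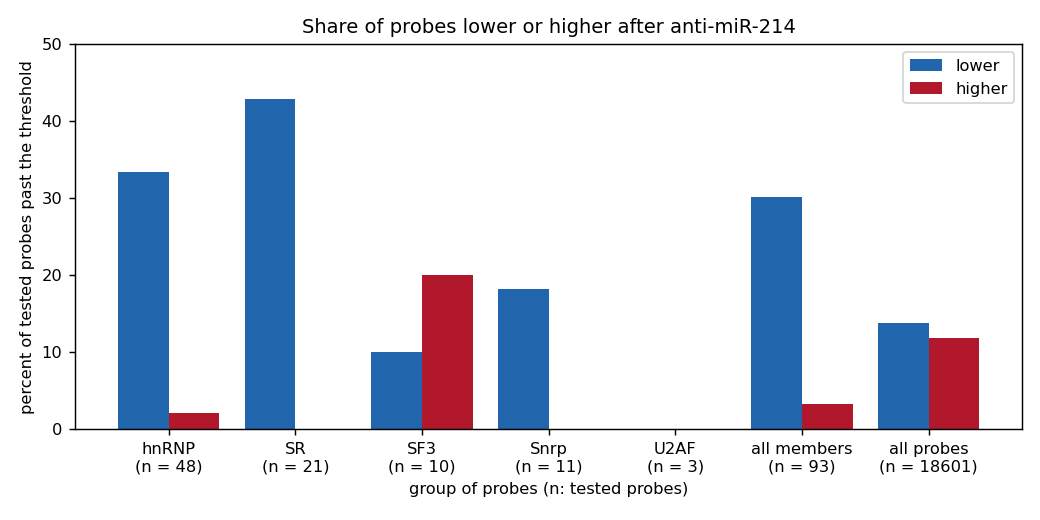
Percent of tested probes that passed the threshold after anti-miR-214, lower in blue and higher in red, for each family, for all 93 splicing factor probes and for all 18601 tested probes, with the number of probes under each pair of bars. The lower share was 30.1% for the splicing factor probes and 13.8% for all probes, and the higher shares were 3.23% and 11.8%.

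**Figure D2:**
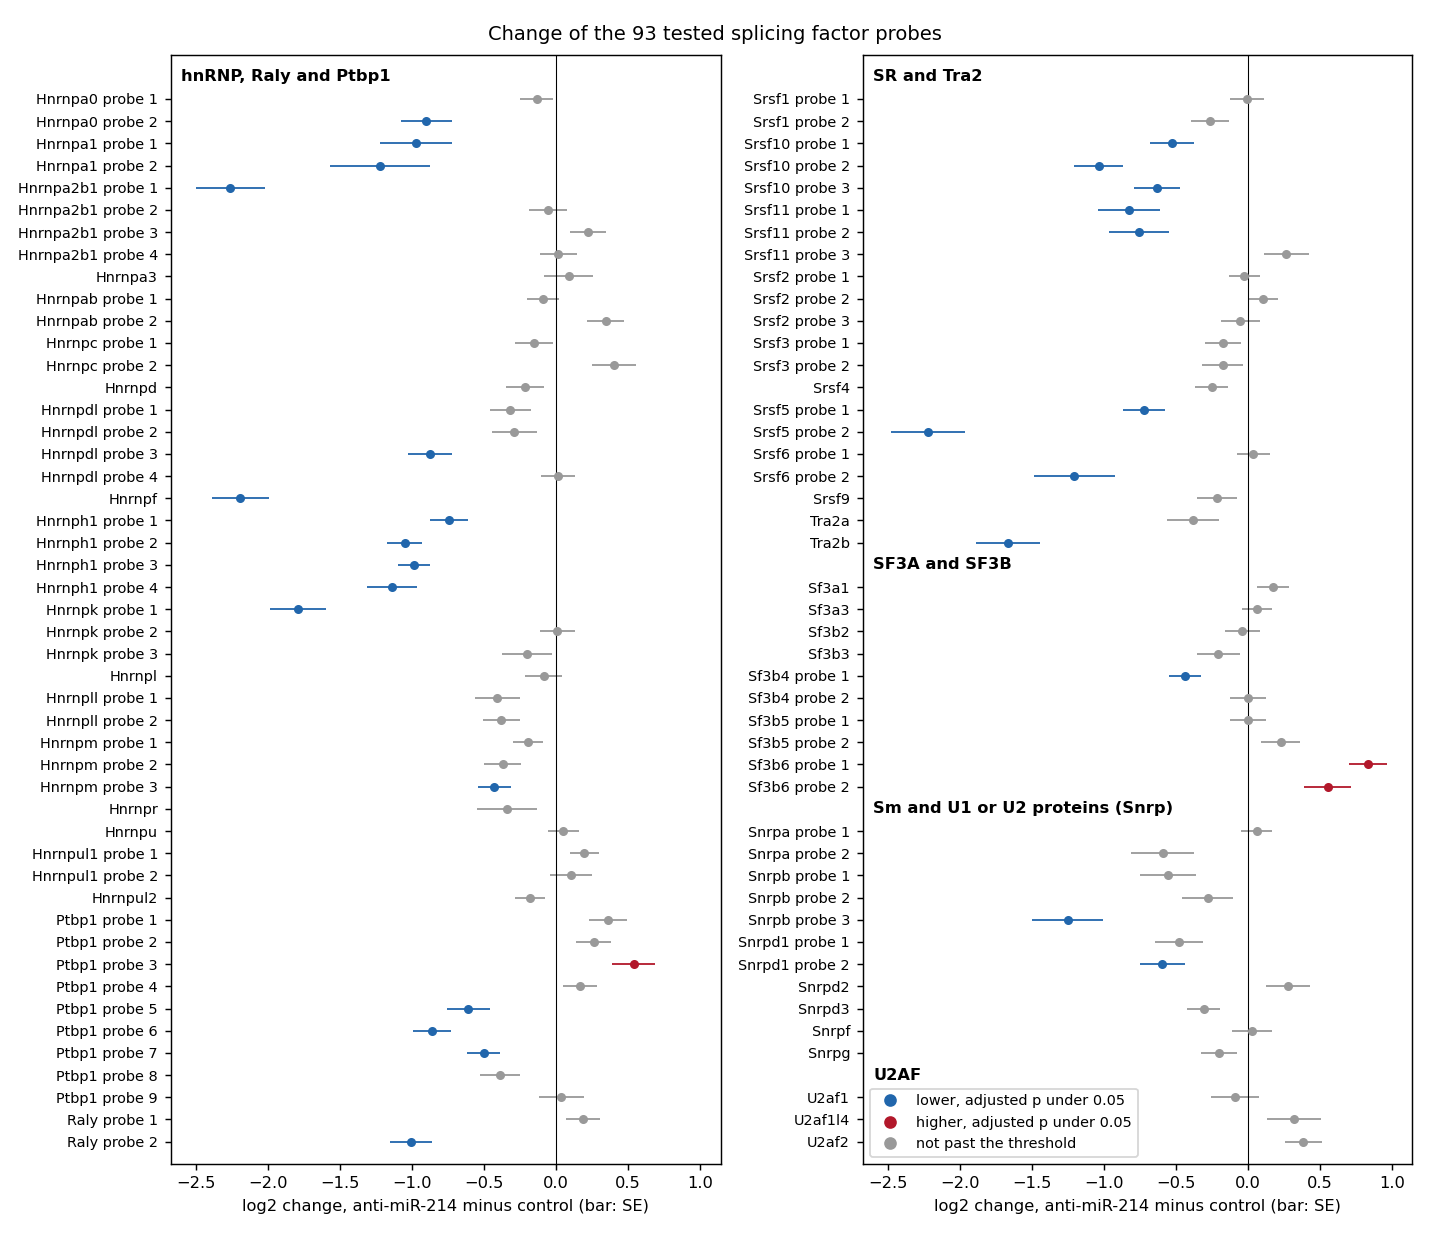
Log2 change of each of the 93 tested probes, anti-miR-214 minus control antimiR, with bars for the standard error (4 arrays a group), by family. Blue points passed the threshold as lower (28), red points as higher (3), and grey points did not pass (62).

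Among the hnRNPs, Hnrnpa2b1, whose proteins bind exonic and intronic silencers and also take part in mRNA transport, had the largest fall by 1 of its probes. Its brightest probe (ILMN_2615855) read 10.34, 10.42, 10.52 and 10.37 on control arrays 1 to 4 and 8.56, 8.50, 8.25 and 7.30 on anti-miR-214 arrays 1 to 4. All anti-miR-214 arrays lay far below all control arrays, with replicate 4 the lowest. The mean went from 10.41 ± 0.08 to 8.15 ± 0.59 (SD, n = 4), a change of -2.26 (SE 0.24, limma adjusted p = 0.000494), or 4.79-fold lower. Its 3 other probes had changes of -0.05, 0.22 and 0.02, and none of the 3 passed.

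Hnrnpf, which binds G-rich stretches, had 1 tested probe. It read 8.02, 8.09, 8.51 and 8.40 on control arrays and 6.65, 5.94, 5.75 and 5.93 on anti-miR-214 arrays, and it was detected on 3 of the 4 latter. The groups were far apart, and anti-miR-214 replicate 1 stood highest within its group. The mean of 8.26 ± 0.24 went to 6.07 ± 0.40, a change of -2.19 (SE 0.20, limma adjusted p = 0.000324), 4.57-fold lower.

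Hnrnph1, the close relative of Hnrnpf, was lower on each of its 4 probes. The brightest read 11.08, 11.18, 10.93 and 10.86 on control arrays and 10.18, 10.37, 10.48 and 10.05 on anti-miR-214 arrays. The groups did not overlap, and replicate 3 was the highest of the anti-miR-214 arrays. The change was -0.74 (SE 0.13, limma adjusted p = 0.00393), 1.67-fold lower. The other probes had changes of -1.05, -0.99 and -1.14, the last on a probe detected on 2 of 4 anti-miR-214 arrays.

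Hnrnpk, a protein that binds C-rich RNA and DNA, resembled Hnrnpa2b1 in that 1 of its 3 probes fell and the others did not pass. Its brightest probe (ILMN_1245987) read 9.81, 9.77, 10.03 and 9.77 on control arrays and 8.49, 8.34, 7.84 and 7.57 on anti-miR-214 arrays. All anti-miR-214 values lay below all control values, with replicates 3 and 4 lowest. The mean went from 9.85 ± 0.13 to 8.06 ± 0.43, a change of -1.79 (SE 0.19, limma adjusted p = 0.000494), 3.46-fold lower, while the dimmer probes had changes of 0.01 and -0.20.

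Hnrnpa1, a shuttling protein that silences splice sites, was lower on both probes, most on 2 of the arrays. Its brightest probe read 10.34, 10.55, 10.28 and 10.93 on control arrays and 10.06, 9.97, 9.21 and 8.97 on anti-miR-214 arrays, a change of -0.97 (SE 0.25, limma adjusted p = 0.0177). Probe 2 read 9.37, 9.54, 9.48 and 9.35 against 9.21, 8.71, 7.50 and 7.43, a change of -1.22 (SE 0.35, adjusted p = 0.026). On both probes anti-miR-214 replicates 3 and 4 were well below replicates 1 and 2, and replicate 1 was the closest to the control arrays. The call on Hnrnpa1 probe 1 was lost without anti-miR-214 replicate 3 (change -0.86, adjusted p = 0.053) and without control replicate 4 (-0.84, adjusted p = 0.0504). The call on Hnrnpa1 probe 2 was lost without anti-miR-214 replicate 3 (-0.98, adjusted p = 0.0722) or 4 (-0.96, adjusted p = 0.0601), and without control replicate 2 (-1.19, adjusted p = 0.0643), 3 (-1.21, adjusted p = 0.0577) or 4 (-1.25, adjusted p = 0.0548).

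Raly, an RNA-binding relative of Hnrnpc, had 1 probe that did not pass and 1 that fell. Probe 1 read 11.01, 10.79, 10.91 and 10.84 on control arrays and 11.27, 11.14, 10.93 and 10.96 on anti-miR-214 arrays, a change of 0.19 (limma adjusted p = 0.27). Probe 2 (ILMN_1237206) read 7.79, 7.64, 7.78 and 7.56 against 7.04, 6.70, 6.44 and 6.56, a change of -1.01 (SE 0.14, adjusted p = 0.00145). The groups were interleaved on probe 1 and lay apart on probe 2.

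Hnrnpc, whose protein binds U tracts, had changes of opposite sign on its 2 probes, and neither passed. Probe 1 read 12.87, 12.88, 12.72 and 12.49 on control arrays and 12.53, 12.77, 12.62 and 12.43 on anti-miR-214 arrays, a change of -0.16 (limma adjusted p = 0.397). Probe 2 read 9.46, 9.32, 9.13 and 8.84 against 9.36, 9.66, 9.67 and 9.67, a change of 0.40 (adjusted p = 0.0717). The groups overlapped on both.

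Ptbp1, the polypyrimidine tract binding protein that represses exons, had 9 tested probes. It was the only gene of the 26 with several tested probes that was called in both directions. The brightest probe read 11.82, 11.63, 11.66 and 11.30 on control arrays and 11.84, 11.90, 12.08 and 12.01 on anti-miR-214 arrays, a change of 0.36 that did not pass (limma adjusted p = 0.069). Probe 3 (ILMN_1227001) read 10.58, 10.44, 10.46 and 9.96 against 10.86, 10.76, 11.05 and 10.92 and was higher by 0.54 (SE 0.15, adjusted p = 0.0241). Probe 6 (ILMN_1243690) read 9.30, 9.17, 9.34 and 9.38 against 8.58, 8.65, 8.17 and 8.34 and was lower, with a change of -0.86 (SE 0.13, adjusted p = 0.00197). On these 3 probes the groups did not overlap, and the 4 brightest probes all had changes above 0. Probes 5 and 7 were lower as well, with changes of -0.61 (adjusted p = 0.0143) and -0.50 (adjusted p = 0.0113), and probes 2, 4, 8 and 9 had changes of 0.26, 0.16, -0.39 and 0.04 that did not pass. The lower calls of Ptbp1 were lost without anti-miR-214 arrays 3 and 4 together for probe 5 (-0.40, adjusted p = 0.132) and probe 7 (-0.42, adjusted p = 0.0957), and for probe 5 on slide 1 alone (-0.54, adjusted p = 0.0696). The call on Ptbp1 probe 3 was lost without anti-miR-214 replicate 3 (0.49, adjusted p = 0.0683) and without replicate 4 (0.53, adjusted p = 0.0505), on slide 1 alone (0.39, adjusted p = 0.0735) and under median scaling (0.43, adjusted p = 0.0552).

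Hnrnpl, which binds CA repeats, read 12.001, 11.96, 11.72 and 12.19 on control arrays and 11.79, 11.89, 12.04 and 11.81 on anti-miR-214 arrays, a change of -0.09 (limma adjusted p = 0.648). Hnrnpu, a nuclear matrix protein that binds RNA and DNA, read 5.92, 6.15, 6.18 and 6.07 against 6.21, 6.11, 6.09 and 6.11, a change of 0.05 (adjusted p = 0.764). The groups overlapped in both genes. Of the remaining hnRNP genes, Hnrnpa0, Hnrnpdl and Hnrnpm each had 1 lower probe, with changes of -0.90 (limma adjusted p = 0.00581), -0.88 (adjusted p = 0.00366) and -0.43 (adjusted p = 0.0202), and other probes that did not pass. The call on Hnrnpm was lost without control replicate 1 (-0.38, adjusted p = 0.0561) and without anti-miR-214 replicate 4 (-0.38, adjusted p = 0.0528). Hnrnpa3, Hnrnpab, Hnrnpd, Hnrnpll, Hnrnpr, Hnrnpul1 and Hnrnpul2 had no probe past the threshold, with changes from -0.41 for Hnrnpll to 0.34 for Hnrnpab. The Hnrnpd probe was detected on all 4 control arrays and on 0 of the anti-miR-214 arrays, where it was not above background.

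**Figure D3:**
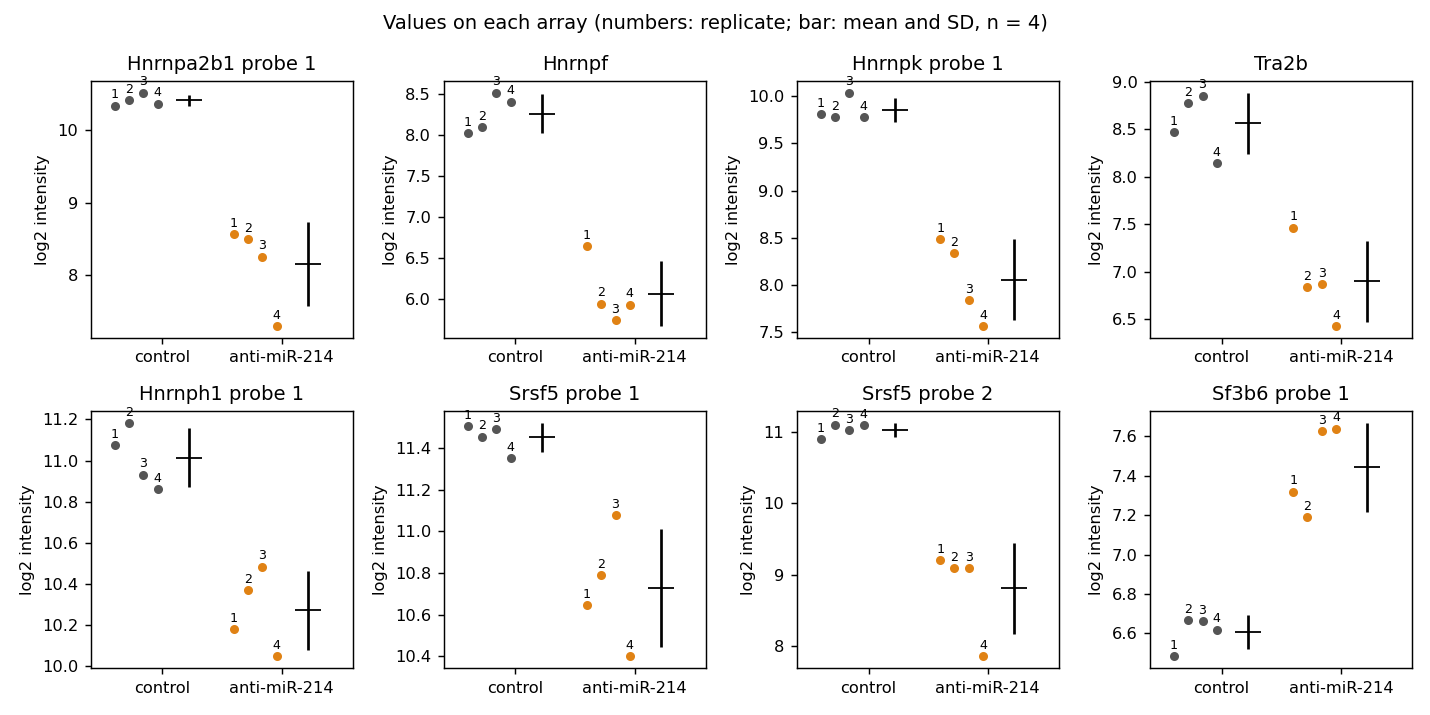
Log2 intensity on each array for 8 probes, control antimiR in grey and anti-miR-214 in orange, with the replicate number above each point and the mean and SD (n = 4) as a bar beside it. In each panel the groups lie apart, lower after anti-miR-214 in 7 panels and higher for Sf3b6.

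Among the SR proteins, Srsf5 and Tra2b had the largest falls. Srsf5, a regulator of alternative exons, read 11.51, 11.45, 11.49 and 11.35 on control arrays and 10.65, 10.79, 11.08 and 10.40 on anti-miR-214 arrays by its brightest probe, a change of -0.72 (SE 0.15, limma adjusted p = 0.00669). Probe 2 (ILMN_2772274) read 10.90, 11.10, 11.03 and 11.10 against 9.20, 9.09, 9.10 and 7.86, a change of -2.22 (SE 0.26, adjusted p = 0.000622), 4.66-fold lower. Both probes separated the groups, and replicate 4 was the lowest anti-miR-214 array on both.

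Tra2b, an SR-like protein that activates exons through GA-rich enhancers, read 8.47, 8.78, 8.86 and 8.15 on control arrays and 7.47, 6.84, 6.87 and 6.43 on anti-miR-214 arrays by its 1 tested probe. The groups did not overlap, and replicate 4 was the lowest in each. The mean went from 8.56 ± 0.32 to 6.90 ± 0.43, a change of -1.66 (SE 0.22, limma adjusted p = 0.00106), 3.17-fold lower. Its paralog Tra2a read 10.69, 10.75, 10.30 and 10.12 against 10.21, 10.31, 10.11 and 9.69, with overlapping groups and a change of -0.38 that did not pass (adjusted p = 0.141).

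Srsf10, which turns into a general repressor of splicing when dephosphorylated, was lower on probes 1 and 2. Their changes were -0.53 (limma adjusted p = 0.0298) and -1.03 (adjusted p = 0.00265). Probe 3 was detected on all 4 control and 0 anti-miR-214 arrays and was tested only through the control arrays, so that only a bound of at least 1.17-fold lower can be given (fitted change -0.63, adjusted p = 0.017). The call on Srsf10 probe 1 was lost without control replicate 1 (-0.50, adjusted p = 0.0671), 2 (-0.49, adjusted p = 0.0791) or 3 (-0.47, adjusted p = 0.0774) and without anti-miR-214 replicate 4 (-0.42, adjusted p = 0.0727).

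Srsf11, an SR-related protein that contacts U2AF, read 9.25, 8.85, 9.18 and 9.86 on control arrays and 8.78, 8.61, 8.16 and 8.27 on anti-miR-214 arrays by its brightest probe, a change of -0.83 (SE 0.21, limma adjusted p = 0.0182). Probe 2 had a change of -0.76 (adjusted p = 0.0238), and it was the only one of the 28 lower probes whose groups overlapped. Probe 3 had a change of 0.27 (adjusted p = 0.23), not past the threshold. Leaving out anti-miR-214 replicate 3, neither call on Srsf11 passed (-0.73, adjusted p = 0.0542, and -0.65, adjusted p = 0.0697). The call on probe 2 was also lost without anti-miR-214 replicate 4 (-0.67, adjusted p = 0.0601) and without control replicate 4 (-0.60, adjusted p = 0.0591).

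Srsf6, an SR protein that binds exonic enhancers, read 10.41, 10.26, 10.07 and 10.21 on control arrays and 10.35, 10.31, 10.30 and 10.13 on anti-miR-214 arrays by probe 1, a change of 0.04 (limma adjusted p = 0.837). Probe 2 (ILMN_1240406) read 8.46, 8.33, 8.58 and 7.72 against 6.70, 7.62, 7.52 and 6.43, a change of -1.20 (SE 0.28, adjusted p = 0.0117). The groups were interleaved on probe 1, while on probe 2 the lowest control array, replicate 4, lay just above the highest anti-miR-214 array.

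Srsf1, Srsf2 and Srsf3, the most studied SR proteins, had no probe past the threshold. Srsf1 read 12.07, 11.88, 11.73 and 11.78 on control arrays and 11.75, 11.85, 11.87 and 11.96 on anti-miR-214 arrays by its brightest probe, a change of -0.01 (limma adjusted p = 0.963). Srsf2 read 12.04, 11.87, 11.74 and 11.88 against 11.83, 11.91, 11.84 and 11.85, a change of -0.03 (adjusted p = 0.875). Srsf3 read 8.32, 8.18, 8.17 and 8.03 against 7.88, 7.87, 8.04 and 8.22, a change of -0.17 (adjusted p = 0.319). The groups overlapped on the brightest probes of these 3 genes, and their other probes had changes from -0.26 to 0.11. On Srsf2 probe 2, with the change of 0.11, all anti-miR-214 values lay above all control values. Srsf4 and Srsf9 had changes of -0.25 and -0.22 that did not pass.

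**Figure D4:**
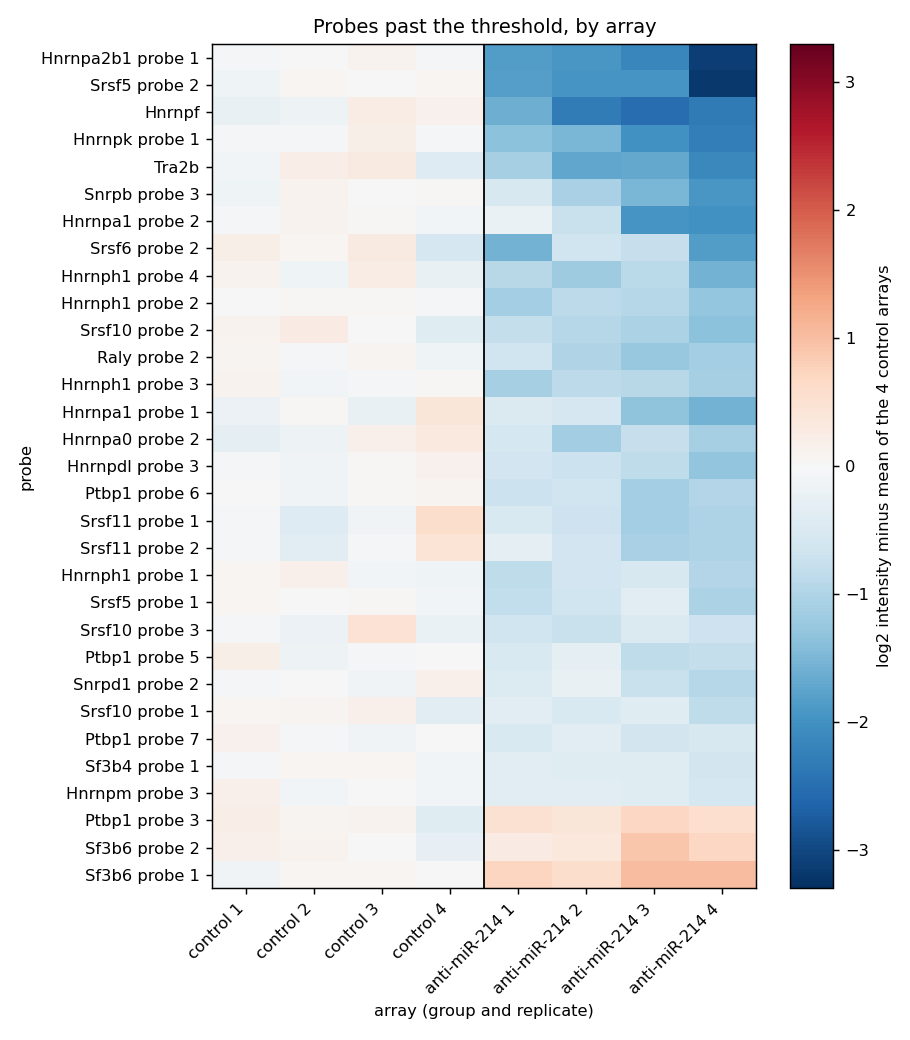
Heat map of the 31 probes past the threshold, with the array on the horizontal axis and the colour giving log2 intensity minus the mean of the 4 control arrays. Anti-miR-214 replicates 3 and 4 were both below replicates 1 and 2 for 17 of the 28 lower probes, and the lowest array was replicate 3 or 4 for 25 of them.

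Among the SF3 genes, Sf3b6, the subunit that contacts the branch point adenosine, was higher on both probes. Probe 1 (ILMN_2952292) read 6.48, 6.67, 6.66 and 6.62 on control arrays and 7.32, 7.19, 7.63 and 7.64 on anti-miR-214 arrays, a change of 0.83 (SE 0.13, limma adjusted p = 0.00221), 1.78-fold higher. Probe 2 read 6.53, 6.47, 6.34 and 6.08 against 6.63, 6.71, 7.26 and 7.03, a change of 0.55 (SE 0.16, adjusted p = 0.0311). The groups did not overlap on either probe, and anti-miR-214 replicates 3 and 4 were highest on both. The call on Sf3b6 probe 2 was lost without anti-miR-214 replicate 3 (0.43, adjusted p = 0.0839) or 4 (0.51, adjusted p = 0.0712) and without control replicate 2 (0.59, adjusted p = 0.0558), 3 (0.55, adjusted p = 0.0658) or 4 (0.46, adjusted p = 0.0768). It was also lost on slide 1 alone (0.42, adjusted p = 0.14) and under median scaling (0.22, adjusted p = 0.326). The same call was lost with no background correction and without a detection filter, and it held in 11 of 21 alternatives.

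Sf3b4, which helps hold the U2 particle to the pre-mRNA, was lower by its brightest probe with a change of -0.44 (limma adjusted p = 0.0174), and its other probe had a change of 0.00. That call on Sf3b4 was lost without control replicate 2 (-0.42, adjusted p = 0.0537). Sf3a1, a subunit that joins U2 to the pre-spliceosome, read 9.996, 10.06, 9.82 and 9.87 on control arrays and 10.03, 10.14, 10.22 and 10.06 on anti-miR-214 arrays. Its groups overlapped, and the change of 0.18 did not pass (adjusted p = 0.258). Sf3a3, Sf3b2, Sf3b3 and Sf3b5 did not pass either, with changes from -0.21 to 0.23. The 1 probe of Sf3b1, the scaffold of the complex, was detected on no array.

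Among the Snrp genes, Snrpb encodes a core Sm protein, and its probes ran from not passing to a clear fall. The brightest probe read 11.16, 11.10, 10.99 and 11.63 on control arrays and 11.08, 10.78, 10.50 and 10.30 on anti-miR-214 arrays, a change of -0.56 (limma adjusted p = 0.0542). Probe 3 (ILMN_1239795) read 7.79, 8.07, 7.94 and 7.98 against 7.43, 6.87, 6.45 and 6.03, a change of -1.25 (SE 0.25, adjusted p = 0.00597). The groups overlapped on the first and not on the second, and anti-miR-214 replicate 4 was lowest on both. Snrpd1, another Sm protein, had changes of -0.48 (adjusted p = 0.053) and -0.60 (adjusted p = 0.0195), and without anti-miR-214 replicate 3 the Snrpd1 call was lost (-0.55, adjusted p = 0.0562). Snrpa, Snrpd2, Snrpd3, Snrpf and Snrpg had no probe past the threshold, with changes from -0.59 for Snrpa probe 2 to 0.27 for Snrpd2.

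U2AF, the heterodimer that binds the polypyrimidine tract and the end of the intron, did not pass on any probe, and 1 of the 3 had an unadjusted limma p under 0.05. U2af2, its large subunit, read 7.93, 7.71, 7.62 and 7.41 on control arrays and 7.94, 8.06, 8.06 and 8.15 on anti-miR-214 arrays, with all anti-miR-214 values above all control values and a change of 0.38 (limma adjusted p = 0.0516). U2af1, the small subunit, read 7.94, 8.08, 8.08 and 8.47 against 8.46, 7.98, 7.81 and 7.95, with overlapping groups and a change of -0.09 (adjusted p = 0.71). U2af1l4, a paralog of the small subunit, had a change of 0.32 (adjusted p = 0.231).

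Probes of 1 gene often did not move together. Of the 26 genes with several tested probes, Hnrnpa1, Hnrnph1 and Srsf5 were lower on all of them and Sf3b6 was higher on all. Srsf10 was lower on both probes that were detected in both groups, and its other probe had only a bound. In 11 genes some probes were lower and the rest did not pass, Ptbp1 was called both ways, and in 9 genes no probe passed. A call on some probes alone is not a difference between them. Of the 11 genes, Hnrnpm, Snrpd1 and Sf3b4 had no pair that differed in the test below. Each probe was set against the brightest probe of its gene, and the difference of their changes was fitted with limma over all 5307 such pairs of named genes. The changes differed in 19 of 45 splicing factor pairs (42.2%, against 28.1% of all pairs). These came from 13 of the 26 genes, against 1260 of 3769 genes over all named genes with several tested probes. In 12 of the 19 the dimmer probe had the lower change and in 7 the higher. Over all named genes it had the lower change in 1027 of 1492 differing pairs and the higher in 465. Of the 45 pairs, 0 had both probes called in opposite directions (against 1.92% of all pairs), since the Ptbp1 probes called both ways do not include its brightest.

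The differences with the smallest p-values were in Raly, where probe 2 lay -1.19 from probe 1 in its change (SE 0.12, limma adjusted p = 0.000223), and in Hnrnpa2b1, where probe 3 lay 2.48 above probe 1 (SE 0.25, adjusted p = 0.00024). For Hnrnpk the difference of probe 2 from probe 1 was 1.80 (SE 0.22, adjusted p = 0.000504), and for Srsf5 it was -1.50 (SE 0.21, adjusted p = 0.000943), both of whose probes were lower. In Ptbp1 probe 6 differed from probe 1 by -1.22 (adjusted p = 0.00134). Srsf6 (-1.24, adjusted p = 0.00745), Hnrnpc (0.56, adjusted p = 0.0094) and Srsf11 (1.09, adjusted p = 0.00994) followed. The call for Hnrnpa2b1, Hnrnpk, Raly, Srsf6 and Ptbp1 depended on the probe. In Hnrnpa2b1 and Hnrnpk the brightest probe fell while the dimmer ones did not pass, and in Raly and Srsf6 it was the reverse.

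Pairs also differed in Hnrnpa0 (-0.77), Srsf10 (-0.51), Snrpb (-0.70), Hnrnpdl (-0.56) and Snrpa (-0.65). The call on the Snrpb pair was lost without control replicate 2 (-0.62, adjusted p = 0.051). The Hnrnpdl pair lost its call without control replicate 2, 3 or 4 or anti-miR-214 replicate 2, 3 or 4, with adjusted p up to 0.0724 for Hnrnpdl, and the Snrpa pair without control replicate 1, 2 or 3 or anti-miR-214 replicate 3 or 4, with adjusted p up to 0.109 for Snrpa. Without anti-miR-214 arrays 3 and 4 together, the pairs of Hnrnpdl (adjusted p = 0.167), Snrpa (0.283), Snrpb (0.141), Srsf10 (0.099), Hnrnpc (0.0937), Srsf11 (0.0695) and Ptbp1 probe 8 (0.0884) lost their calls. On slide 1 alone those of Hnrnpdl (adjusted p = 0.123), Hnrnpa0 (0.075) and Srsf11 (0.0588) did. The Snrpb pair (0.388) and the Srsf10 pair (0.0929) also lost theirs with no background correction, and the Snrpa pair (0.0562) on the deposited processed values.

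**Figure D5:**
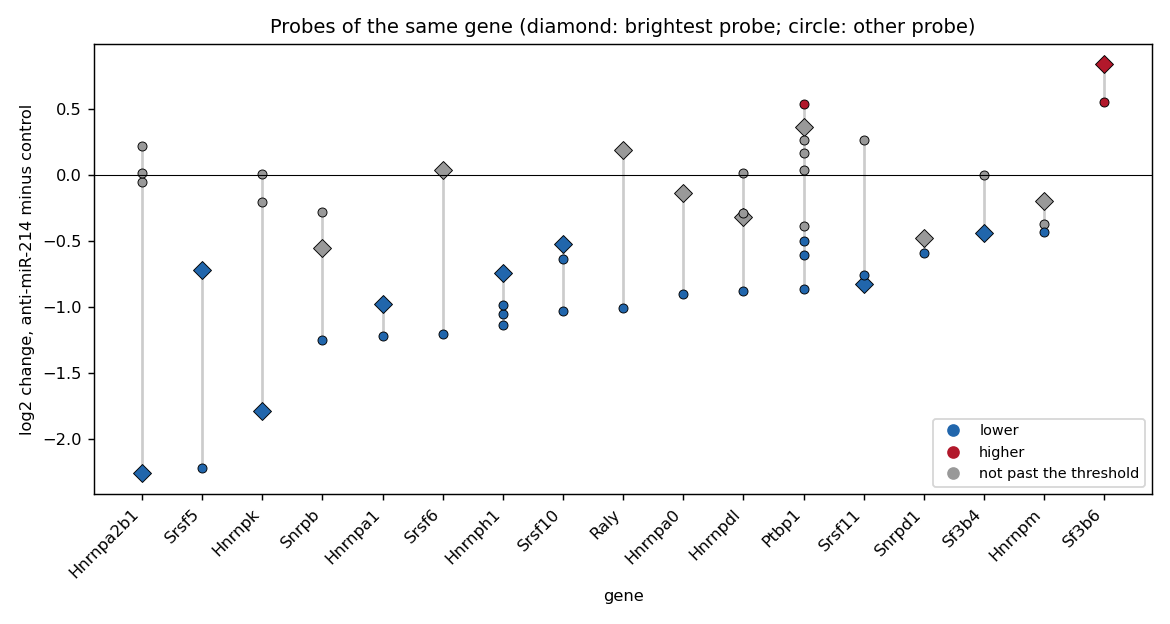
Log2 change, anti-miR-214 minus control antimiR, of each probe for the 17 genes with several tested probes of which at least 1 passed the threshold. Diamonds mark the brightest probe and circles the others, blue is lower, red is higher and grey did not pass, and the line spans from -2.26 to 0.22 in Hnrnpa2b1 and from -0.86 to 0.54 in Ptbp1.

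On slide 1 alone, with 3 arrays a group, 21 splicing factor probes were lower (22.6%, against 7.92% of all probes) and 1 was higher (1.08%, against 5.78%). The 7 lower calls lost there were both of Hnrnpa1, both of Srsf11, and those of Hnrnpm, Snrpd1 and Ptbp1 probe 5. Without anti-miR-214 arrays 3 and 4 together, 16 were lower (17.2%, against 5.17% of all probes) and 1 was higher (1.08%, against 2.35%). The 12 lower calls lost there were the same 7 and those of Ptbp1 probe 7, Sf3b4, Srsf6 and Srsf10 probes 1 and 3, and the higher calls of Ptbp1 probe 3 and Sf3b6 probe 2 were lost under both. The count of higher probes went from 3 to 5 without control replicate 1, and to 1 without anti-miR-214 replicate 3 or 4. Centring the arrays on their medians in place of quantile normalization shifted the median of all probes to -0.15. It gave 42 lower splicing factor probes (45.2%, against 24.2% of all probes) and 1 higher (1.08%, against 2.96%).

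By their brightest probe, other genes of splicing were lower at a share close to that of all named genes. Taken the same way, 20.8% of the 48 splicing factor genes were lower. Dimmer probes of these other genes, with changes from -1.52 in Khdrbs1 to 0.77 in Lsm12, were not counted. Of 150 listed genes for the spliceosome, kinases of SR proteins, other splicing regulators, the exon junction complex and nonsense-mediated decay, 123 were tested by their brightest probe. Of these 11 were lower (8.94%, against 9.93% of named genes), 15 were higher (12.2%, against 12.3%) and 97 did not pass. The median change was 0.05, against 0.08 over named genes. The difference between this list and the hnRNP and SR genes was not tested. Among 22 tested tri-snRNP and Prp genes 1 was lower (4.55%) and 4 were higher (18.2%). Among 36 other regulators 6 were lower (16.7%) and 2 higher (5.56%), against 9.93% and 12.3% of named genes.

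The falls with the smallest p-values in that list include Clk1, a kinase that phosphorylates SR proteins, which read 10.64, 10.47, 10.29 and 10.31 on control arrays and 8.78, 9.43, 9.42 and 9.08 on anti-miR-214 arrays, without overlap. Its change was -1.25 (SE 0.16, limma adjusted p = 0.000974). Son, a large scaffold of nuclear speckles, had a change of -0.95 (adjusted p = 0.00147) by its brightest probe and 0.05 by the other. Pcbp1, a poly(C)-binding protein, and Sfpq, a paraspeckle protein, had changes of -1.03 (adjusted p = 0.00432) and -0.85 (adjusted p = 0.00889), and Lsm8, of the U6 ring, -0.53 (adjusted p = 0.0128). The rises with the smallest p-values were in Lsm12 (0.92, adjusted p = 0.00154), Lsm10 of the U7 particle (0.60, adjusted p = 0.00667), Rbm10, a splicing repressor (0.63, adjusted p = 0.00848), Ddx41, a helicase (0.57, adjusted p = 0.0106), and Srpk1, a kinase of SR proteins (0.50, adjusted p = 0.0111). Probes disagreed here too, with a change of -0.58 on the other probe of Rbm10 and changes of -0.75 and 0.77 on the other probes of Lsm12.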

How the data were processed

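The deposited main table held 1 mean bead intensity per probe and array on a linear scale, not normalized, per the file headers, and a detection p-value for each, per the file headers. The other deposited table, of processed intensity values whose making is not stated, had the same rank order on each array and served as an alternative only. Intensities were processed with neqc in limma 3.58.1 (R 4.3.3): a normal plus exponential background model, whose negative controls limma infers from detection p-values, an offset of 16, quantile normalization and log2. Because of the offset, changes of dim probes are understated, and quantile normalization hides a shift shared by all probes. The model of lmFit and eBayes held group alone. Benjamini-Hochberg adjustment ran over the 18601 tested probes, and 0.05 was the threshold. The fit was tested on simulated data. Groups came from the sample titles. Arrays have no read depth, and the 4 arrays a group limit the precision.

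Gene names came from the platform annotation, which gave 34885 probes 1 symbol and 18 probes several symbols, the latter unused, and did not list 10378. All 55 members matched the RefSeq table of GRCm38.p6. The genome build of the array was not given in the sources used here, so probe coordinates are not printed. For each gene the brightest probe stood, and probes of 1 gene were never averaged outside the alternatives. A probe not detected on any array of a group had only a bound. The members and lists were chosen with earlier results of these data known. Values on each array were given for the 8 largest rises and falls past the threshold by brightest probe, for up to 8 genes with the smallest p for a difference between probes, and for a list of 20 members whatever their values. Other splicing genes were named among the 5 smallest p of each direction. No array was identical to another, and no column was left unmapped (0). Deviations of arrays with the same replicate number correlated at 0.015, 0.0631, 0.0508 and 0.204, so the numbers were not taken to pair animals. Alternatives changed the background correction, normalization, detection filter, slide and replicate blocks, variance model, probe choice and the arrays included.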

Additional observations from a re-analysis of the deposited data

Results flagged for a closer look

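In groups of 4 arrays, 62 groups of values of the named probes were checked for an array far from its group, by Dixon's critical value for the gap to the nearest array as a part of the group's range, and 4 were found. Chance gives about 1 in 20 such groups.

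Srsf5 probe 2 read 7.86 on anti-miR-214 replicate 4, against 9.09 to 9.20 on the other arrays of its group, all below the control arrays. Hnrnpk probe 1 read 10.03 on control replicate 3, against 9.77 to 9.81 on the other control arrays. Hnrnpc probe 2 read 9.36 on anti-miR-214 replicate 1, against 9.66 to 9.67 on the other arrays. Hnrnpu read 6.21 on anti-miR-214 replicate 1, against 6.09 to 6.11 on the others.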

How the results depend on the processing

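Of the 31 calls on splicing factor probes, 16 of the lower and 1 of the higher passed with the same sign under all alternatives that tested them, up to 21 each, and 0 changed sign in any. Of the 19 probe pairs that differed, 11 did so throughout. Leaving out 1 array at a time gave 23 to 30 lower and 1 to 5 higher probes, 8 to 12 lower and 1 to 2 higher genes, and 16 to 21 pairs. Without anti-miR-214 arrays 3 and 4 together there were 16 lower and 1 higher probes, 6 lower genes and 12 pairs. Higher probes numbered 5 with normexp at an offset of 50, 1 under median scaling and 1 on slide 1 alone, against 3. Higher genes numbered 3 with that normexp and with no background correction, and 2 with detection on all 8 arrays, detection p under 0.01, slide as a block, a variance trend or the mean of a gene's probes, against 1. Lower genes numbered 18 under median scaling, 18 by the probe of largest variance and 16 by the mean of probes, against 10. Without a detection filter, which adds probes, 32 pairs differed, and the calls on Hnrnpa1 probe 2, Srsf11 probe 2 and Sf3b6 probe 2 were lost. Median scaling changed the sign of 15 uncalled probes and gave 551 higher and 4509 lower probes of all 18601, against 2195 and 2566. With the replicate block there were 29 lower and 3 higher probes, 11 lower and 1 higher genes and 18 pairs, and the pairs of Hnrnpdl (adjusted p = 0.063) and Snrpa (adjusted p = 0.0505) lost their calls. The cause of these shifts was not tested. Signal over background limits the dim probes: 83 of 93 were detected on all 8 arrays. The p-values of limma weigh each change against the spread among 4 animals a group, moderated over all tested probes.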
